A study of Mus musculus with 6 samples.

Results

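The Mrpl genes encode proteins of the large subunit of the mitochondrial ribosome, and their mRNA levels were compared between Lsm14b-KO and WT mouse oocytes. Members were the rows of the deposited expression table whose gene symbol was Mrpl followed only by a number, and there were 48 of them among 24255 genes. Of the 46 that could be tested, 22 (47.8%) fell past the threshold in Lsm14b-KO oocytes, against 15.2% of all tested genes, 1 rose, and 23 were not past it. Without Lsm14b-KO replicate 1, which lay closest to WT, 33 were called lower, against 27.3% of all tested genes. With any other library left out, 10 to 17 were called lower, against 4.31% to 10.5% of all tested genes. Of the 22 lower calls, 10 were kept in all 6 of these fits. The falls were uneven. Mrpl52 and Mrpl53 had the largest, while Mrpl28, Mrpl9 and Mrpl3 had overlapping groups and were not past the threshold. Mrpl28 was called higher once each library was rescaled to the same FPKM sum (limma adjusted p = 0.0346). The remaining pair, Mrpl19 and Mrpl38, reached at most 0.308 and 0.339 FPKM in any library and were not tested.

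The mitochondrial ribosome translates the few proteins that are encoded by mitochondrial DNA, all of which are subunits of the oxidative phosphorylation complexes. Its proteins are encoded in the nucleus, translated in the cytosol and imported, and the large subunit is assembled from them on a mitochondrial ribosomal RNA. The large subunit holds the site where peptide bonds form and the tunnel through which the new chain leaves. Oocytes contain very many mitochondria and draw their energy mainly from oxidative phosphorylation of pyruvate, and fully-grown oocytes are almost silent in transcription, so their mRNAs are mostly stored ones.

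RNA-Seq had been made from fully-grown oocytes (FGOs) at the germinal vesicle (GV) stage, that is, oocytes that have finished growth and wait in prophase of the first meiosis. There were 3 WT and 3 Lsm14b-KO libraries of 20 oocytes each, from females given 5 IU of PMSG, a gonadotropin that stimulates follicles, 46 h earlier, with cDNA made by the Smart-seq2 procedure and read as pairs of 150 bp. Lsm14b-KO animals were homozygous for Lsm14b tm1a(KOMP)Mbp, a knockout-first allele. It carries a reporter cassette inserted into the gene in every cell, not in oocytes alone. LSM14B is an RNA-binding protein that the authors detected in oocytes and not in granulosa cells or the other tissues they examined. Both genotypes were kept on a C57BL/6J background. The knockouts came from homozygous males and heterozygous females, a cross that gives no WT littermates, and the ages of the animals used for these libraries were not given in the sources used here. No source states whether the 3 libraries of a genotype came from separate animals or pools, so a p-value here measures the spread between libraries, which may be technical in part. Each value comes from pooled oocytes, so fewer oocytes with an mRNA and less of it in each oocyte cannot be told apart.

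Expression is given as FPKM, the density of fragments along a transcript relative to all mapped fragments of its library. Lsm14b itself, which checks the labels, was at 2.77, 3.98 and 1.72 FPKM in WT replicates 1, 2 and 3 whereas Lsm14b-KO replicates 1 and 2 were listed at 0 and replicate 3 at 0.102 FPKM. Its groups did not overlap (log2 fold change −1.85, limma adjusted p = 0.00380), and the exact two-sided permutation test gave p = 0.10, the smallest that 3 libraries against 3 allow. The 12 oocyte markers were all detected and summed to 43415 to 54545 FPKM in WT and 28121 to 70252 FPKM in Lsm14b-KO libraries. Dppa3 made up most of each sum, at 34582 to 47684 FPKM in WT and 19433 to 63633 FPKM in Lsm14b-KO libraries. The median log2 fold change of the 12 was 0.75, beside −0.075 over all tested genes, and 3 of them had a negative one. Dazl was lower and Ddx4, Kit and Padi6 were higher past the threshold. Of 11 cumulus and granulosa cell markers, Foxl2, Amh and Inhba were listed at 0 in all 6 libraries, and the list summed to 9.68 to 13.5 FPKM in WT and to 6.13 to 10.0 FPKM in Lsm14b-KO libraries. Cyp19a1 held the largest part in every library and was called lower (log2 fold change −0.98, limma adjusted p = 0.0426), though not on the TPM scale described further on (adjusted p = 0.309), while Fshr was above all WT values in the 3 Lsm14b-KO libraries without passing the threshold (limma adjusted p = 0.0923). The listed hemoglobin genes and Alas2, which mark red blood cells, were at 0 in every library. Lsm14b-KO libraries were read more deeply than WT libraries, with a relative depth of 1.34 to 2.18 against 1 to 1.15, while their summed FPKM over all genes was lower, at 564671 to 1029728 against 1141324 to 1244182. The part of these differences in the results was not tested. Lsm14b-KO replicate 1 lay closer to the WT libraries than the other Lsm14b-KO libraries did, and counts without it are given for the members as a whole and for the lists by origin, by place and by pathway, but not for the classes of level and length.

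The tested difference is that of log2(FPKM + 1), called the log2 fold change below, and it makes changes of low genes look smaller than they are. The 6398 genes that reached 1 FPKM in any library were tested together with limma, and a gene was called lower or higher at a Benjamini-Hochberg adjusted p under 0.05. Over all tested genes, 15.2% were called lower and 6.38% higher. Among the tested Mrpl genes the lower calls made up 47.8%. Their median log2 fold change was −1.26, beside −0.075 over all tested genes, and 40 of the 46 had a negative log2 fold change, beside 53.2% of all tested genes. The highest Lsm14b-KO value was under the lowest WT value in 26 Mrpl genes, against 26% of all tested genes, and the lowest was over the highest WT value in 2, against 19.1%. The groups overlapped in the other 18. No set test was run on the list. Of the tested members, 3 reached 1 FPKM only through Lsm14b-KO libraries (Mrpl3, Mrpl37 and Mrpl44) and 3 only through WT libraries (Mrpl11, Mrpl17 and Mrpl39), and those had to differ at least slightly to be tested.

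**Figure D1:**
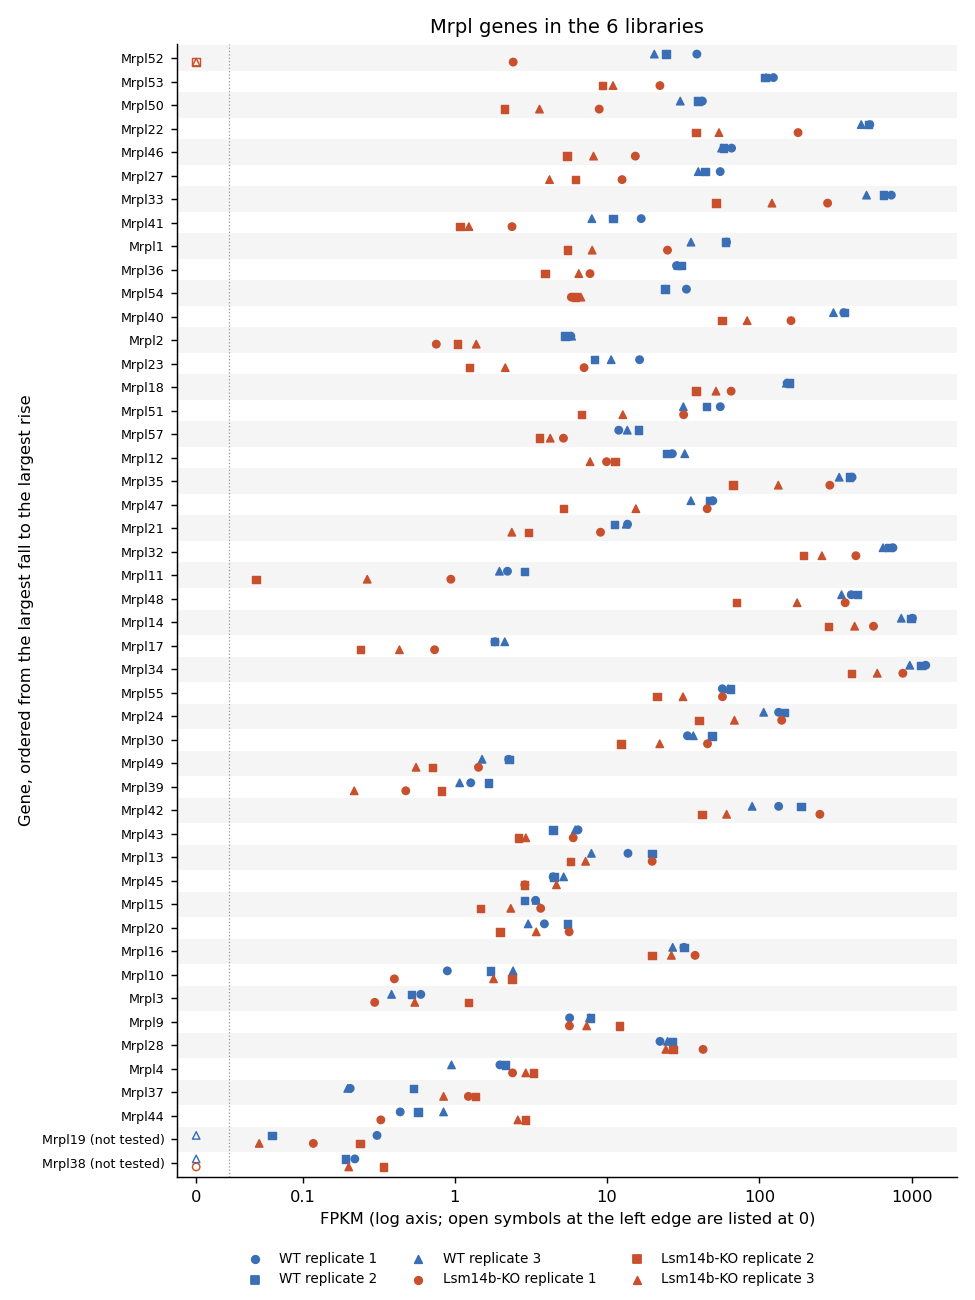
FPKM of each of the 48 Mrpl genes in each library on a log axis, with WT in blue, Lsm14b-KO in red and one symbol per replicate number. Genes run from the largest fall at the top to the largest rise, with the untested Mrpl19 and Mrpl38 last. In the upper rows the red symbols lie to the left of all blue ones, and the red circle of Lsm14b-KO replicate 1 is the rightmost red symbol in most rows.

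The ranking of single genes began with Mrpl52, a protein that has no counterpart in the bacterial ribosome. Mrpl52 was at 38.9, 24.4 and 20.4 FPKM in WT and at 2.42 FPKM in Lsm14b-KO replicate 1. It was listed at 0 in Lsm14b-KO replicates 2 and 3, the 2 deepest libraries, where a 0 can also be a failed estimate. The groups were far apart, with a log2 fold change of −4.21 (SE 0.50, limma adjusted p = 0.00219), and since 2 libraries are at 0 this is no measure of its fold. Mrpl53, likewise particular to mitochondria, was at 124, 109 and 111 FPKM in WT and at 22.2, 9.34 and 10.9 FPKM in Lsm14b-KO libraries. Its WT mean was 8.09 times its Lsm14b-KO mean in FPKM, the WT libraries lay within a narrow band, and the log2 fold change was −3.02 (SE 0.36, limma adjusted p = 0.00219). Mrpl50, also a mitochondrial addition, was at 42.2, 39.4 and 30.2 FPKM in WT and at 8.88, 2.12 and 3.60 FPKM in Lsm14b-KO libraries (log2 fold change −2.86, SE 0.42, limma adjusted p = 0.00484). Here too the lowest WT library stood well above the highest Lsm14b-KO library.

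The next places were shared by both kinds of protein. Mrpl22, the counterpart of a bacterial protein that lines the exit tunnel, was at 531, 519 and 467 FPKM in WT and at 179.6, 38.4 and 54.3 FPKM in Lsm14b-KO libraries. It combined a large fall with a high level, with a log2 fold change of −2.79 (SE 0.54, limma adjusted p = 0.0130). Mrpl46, of the central protuberance, was at 65.7, 58.3 and 56.5 FPKM in WT and at 15.3, 5.47 and 8.14 FPKM in Lsm14b-KO libraries, a log2 fold change of −2.63 (limma adjusted p = 0.00395). Mrpl27, which in bacteria reaches towards the peptidyl transferase site, was at 55.3, 44.0 and 39.7 FPKM against 12.5, 6.22 and 4.19 FPKM, a log2 fold change of −2.56 (limma adjusted p = 0.00494). In both genes the highest Lsm14b-KO value was far below the lowest WT value. Mrpl33 was at 736, 654 and 506 FPKM in WT and at 281, 51.8 and 121 FPKM in Lsm14b-KO libraries (log2 fold change −2.36, limma adjusted p = 0.0259), with a wide spread among the latter. Mrpl41 was at 16.7, 11.0 and 7.94 FPKM in WT and at 2.37, 1.08 and 1.24 FPKM in Lsm14b-KO libraries (log2 fold change −2.31, limma adjusted p = 0.00384). After these 8, the other 14 lower calls were Mrpl1, Mrpl36, Mrpl54, Mrpl40, Mrpl2, Mrpl23, Mrpl18, Mrpl57, Mrpl12, Mrpl21, Mrpl32, Mrpl11, Mrpl14 and Mrpl17, from a log2 fold change of −2.17 to one of −1.01. In all 22 lower calls the groups did not overlap.

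**Figure D2:**
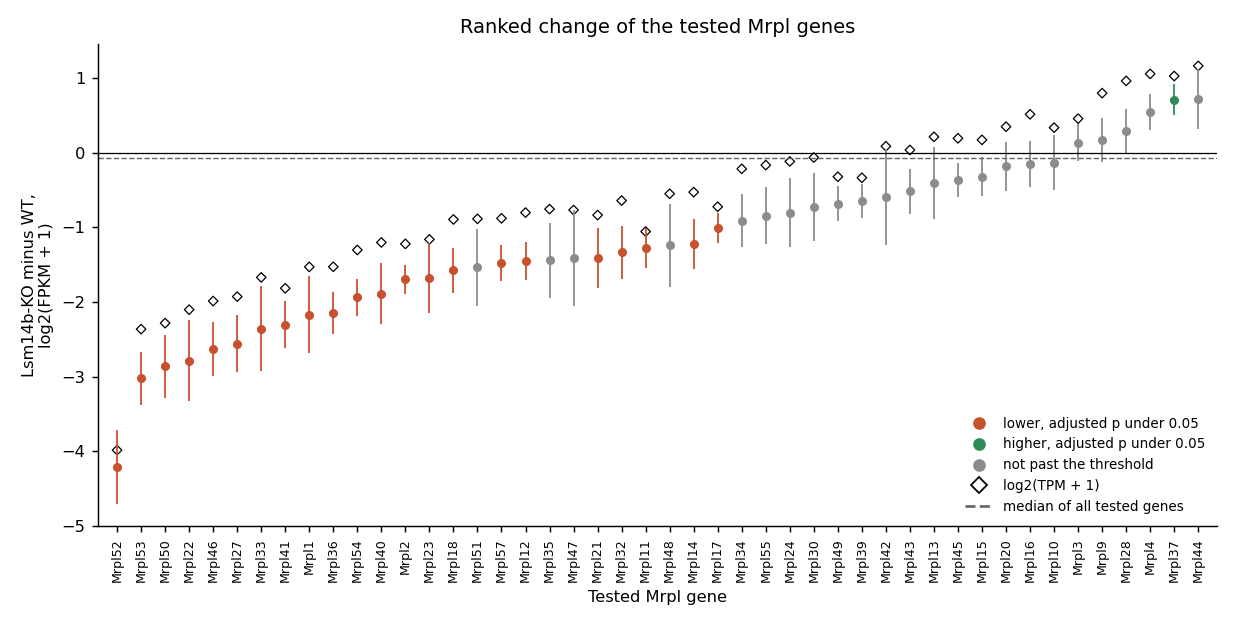
Log2 fold change (Lsm14b-KO minus WT on the log2(FPKM + 1) scale) of the 46 tested Mrpl genes in rank order, filled circles with bars of 1 SE, coloured by call. Open diamonds give the same difference on the log2(TPM + 1) scale and the dashed line the median of all tested genes on the FPKM scale. The order runs from −4.21 for Mrpl52 to 0.72 for Mrpl44, and the diamonds lie higher than the circles in each of the 46 genes.

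At the other end were 6 genes with a positive log2 fold change. Mrpl37, a protein particular to mitochondria, was at 0.205, 0.537 and 0.198 FPKM in WT and at 1.23, 1.37 and 0.843 FPKM in Lsm14b-KO libraries, and it was the only Mrpl gene called higher (log2 fold change 0.71, SE 0.21, limma adjusted p = 0.0475). Its groups did not overlap, but it was tested only through the Lsm14b-KO libraries, and its call was lost in 10 of 16 alternatives (adjusted p 0.0175 to 0.133). Mrpl44, at the tunnel exit, was at 0.438, 0.571 and 0.843 FPKM in WT and at 0.326, 2.92 and 2.59 FPKM in Lsm14b-KO libraries. Lsm14b-KO replicate 1 was below all WT libraries while replicates 2 and 3 were above them, and the gene was not past the threshold (log2 fold change 0.72, SE 0.40, limma adjusted p = 0.210). Without Lsm14b-KO replicate 1 its adjusted p was 0.00390. Mrpl4, near the peptidyl transferase site, was at 1.98, 2.15 and 0.950 FPKM against 2.39, 3.29 and 2.92 FPKM (log2 fold change 0.55, limma adjusted p = 0.132). All 3 Lsm14b-KO values of Mrpl4 were above the WT values without reaching the threshold. Mrpl28 was at 24.7 ± 2.37 FPKM in WT against 31.3 ± 9.91 FPKM in Lsm14b-KO libraries (SD, n = 3 each). Mrpl9 was at 7.03 ± 1.17 and 8.34 ± 3.30 FPKM (SD, n = 3 each). Mrpl3, variants of which cause a mitochondrial cardiomyopathy in people, was at 0.501 ± 0.108 and 0.690 ± 0.480 FPKM (SD, n = 3 each). The groups of these last genes overlapped, with limma adjusted p of 0.471, 0.677 and 0.690, in the order named.

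Windows upstream of some of these genes are shown as a description, and any part of promoters in the changes was not tested. The windows come from the RefSeq annotation of GRCm38.p6 and cover 250 bases before and 50 after the annotated start of transcription. Windows were found for 42 of the 48 members (47 windows, since Mrpl2 has 3 overlapping ones and Mrpl48 has 4 separate ones), and not for Mrpl4, Mrpl13, Mrpl15, Mrpl19, Mrpl38 and Mrpl54. Capitals mark exact matches, on either strand, to letter strings of factors known from promoters of nuclear genes for mitochondrial proteins or from many promoters: NRF1, ETS/GABPA (CCGGAAG), YY1 (AAGATGGC), CRE (TGACGTCA) and the CCAAT box (CCAAT). The ETS/GABPA and YY1 strings can share 3 letters. Mrpl52 and Mrpl53 are shown as the largest falls, Mrpl34 as the most abundant member, and Mrpl37 and Mrpl44 as the largest positive changes. They lie at chr14:54426659-54426958 (plus strand), chr6:83108858-83109157 (plus strand), chr8:71464676-71464975 (plus strand), chr4:107066817-107067116 (minus strand) and chr1:79775768-79776067 (plus strand), and each is written 5′ to 3′ along the gene.
Mrpl52: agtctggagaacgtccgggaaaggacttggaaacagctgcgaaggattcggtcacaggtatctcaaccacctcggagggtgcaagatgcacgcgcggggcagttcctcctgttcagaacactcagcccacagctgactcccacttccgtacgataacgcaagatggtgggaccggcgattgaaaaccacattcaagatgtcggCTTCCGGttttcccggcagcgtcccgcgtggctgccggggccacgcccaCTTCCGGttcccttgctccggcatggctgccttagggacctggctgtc
Mrpl53: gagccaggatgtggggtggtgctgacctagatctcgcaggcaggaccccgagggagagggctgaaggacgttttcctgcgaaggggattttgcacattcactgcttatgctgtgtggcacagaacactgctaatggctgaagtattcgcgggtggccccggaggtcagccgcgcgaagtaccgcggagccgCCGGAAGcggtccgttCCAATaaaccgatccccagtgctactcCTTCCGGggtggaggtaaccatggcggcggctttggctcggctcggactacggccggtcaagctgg
Mrpl34: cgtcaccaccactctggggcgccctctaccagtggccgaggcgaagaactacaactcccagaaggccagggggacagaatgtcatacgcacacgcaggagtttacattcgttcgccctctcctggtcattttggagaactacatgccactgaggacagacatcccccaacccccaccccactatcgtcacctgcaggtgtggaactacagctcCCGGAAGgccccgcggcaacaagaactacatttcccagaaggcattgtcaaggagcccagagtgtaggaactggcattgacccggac
Mrpl37: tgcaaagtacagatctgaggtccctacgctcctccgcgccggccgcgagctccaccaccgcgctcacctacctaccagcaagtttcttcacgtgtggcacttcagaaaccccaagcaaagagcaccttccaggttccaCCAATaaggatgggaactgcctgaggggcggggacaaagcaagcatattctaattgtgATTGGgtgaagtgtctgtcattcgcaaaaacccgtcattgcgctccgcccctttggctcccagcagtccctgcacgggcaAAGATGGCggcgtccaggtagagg
Mrpl44: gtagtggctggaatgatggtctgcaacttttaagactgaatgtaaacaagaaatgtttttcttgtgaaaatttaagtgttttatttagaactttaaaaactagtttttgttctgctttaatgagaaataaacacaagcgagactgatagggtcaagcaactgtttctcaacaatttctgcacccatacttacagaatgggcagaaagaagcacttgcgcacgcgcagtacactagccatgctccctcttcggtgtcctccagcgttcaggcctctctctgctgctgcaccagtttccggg

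The windows of Mrpl52 and Mrpl53 each held the ETS/GABPA string at 2 places and that of Mrpl34 at 1 place. The window of Mrpl37 held YY1 and CCAAT strings and that of Mrpl44 none of those searched. Over all member windows, ETS/GABPA was found in 29.8%, against 18.6% of the windows of all tested genes and 8.86% of all 32851 windows in the table. YY1 was found in 12.8%, against 4.52% and 2.75%, and NRF1 in 6.38%, against 2.12% and 0.971%. CRE was found in 4.26%, against 3.37% and 1.79%, and CCAAT in 36.2%, against 40.8% and 37.4%. Between members called lower and the other tested members, ETS/GABPA was found in 39.1% of 23 against 20.8% of 24 windows, and CCAAT in 47.8% against 25.0%. Each of these sets of windows belongs to 21 genes. The overlapping windows of Mrpl2, each with CCAAT, count separately among the former, and the windows of Mrpl48, none with CCAAT, among the latter. The difference in CCAAT is therefore smaller when counted by gene. By windows, the order was the other way for YY1, at 8.70% against 16.7%, for NRF1, at 4.35% against 8.33%, and for CRE, at 0% against 8.33%. These are counts of letter matches in small sets of windows, with no test, and do not show binding.

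The lower level was found in all 3 Lsm14b-KO libraries but to different degrees. Relative to the WT mean, the median of the tested Mrpl genes was at −0.58 in Lsm14b-KO replicate 1, −1.67 in replicate 2 and −1.28 in replicate 3 on the log2(FPKM + 1) scale. The WT libraries were at 0.075, 0.063 and −0.13. The medians of all tested genes on the same measure were −0.037, −0.14 and −0.069 in the Lsm14b-KO libraries. Lsm14b-KO replicate 1 was the highest of the Lsm14b-KO libraries in 35 of the 46 tested members and in 19 of the 22 lower calls, so it lay closer to WT than the others. The number of tested members below the lowest WT value was 31, 39 and 37 in Lsm14b-KO replicates 1, 2 and 3, and the number above the highest WT value was 8, 6 and 3. Shares over all tested genes are not given for these counts, so they cannot be read as particular to the members. Lsm14b-KO replicate 1 also had the largest summed FPKM over all genes of its group, at 1029728 against 564671 and 676656. Mrpl42, chosen after its values were seen, shows the split best: it was at 134, 188 and 89.6 FPKM in WT, at 249.7 FPKM in Lsm14b-KO replicate 1 and at 41.9 and 60.9 FPKM in replicates 2 and 3.

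**Figure D3:**
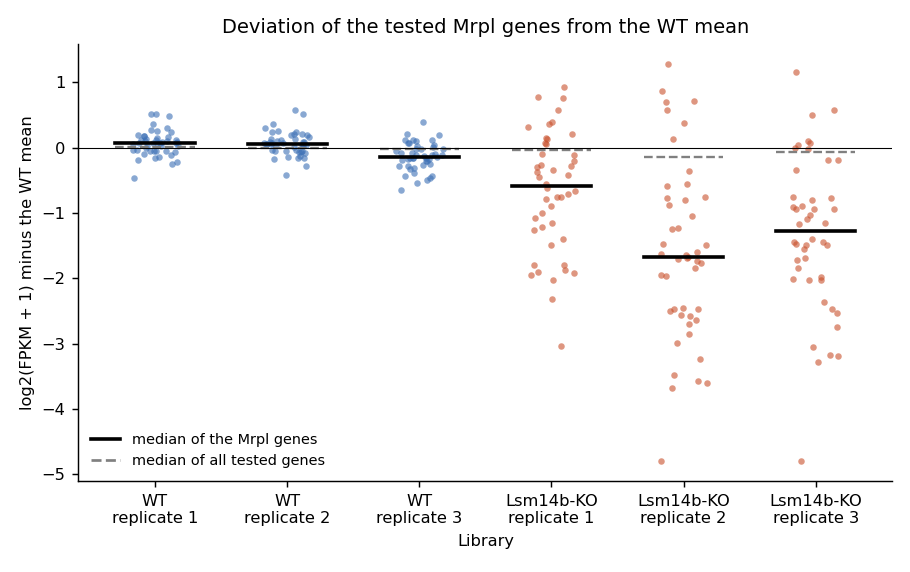
Each point is a tested Mrpl gene in a library, as log2(FPKM + 1) minus the mean of the 3 WT libraries. Black bars are the medians of the Mrpl genes and dashed bars those of all tested genes. The black bars sit near 0 in WT and at −0.58, −1.67 and −1.28 in Lsm14b-KO replicates 1, 2 and 3, while the dashed bars stay within 0.14 of 0.

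Summed over the 48 members, the WT libraries held 6697, 6505 and 5477 FPKM and the Lsm14b-KO libraries 4048, 1479 and 2263 FPKM. As a share of each library's own FPKM sum, which removes the difference in those sums, the members held 0.538%, 0.555% and 0.480% in WT and 0.393%, 0.262% and 0.334% in Lsm14b-KO libraries. The groups did not overlap on either measure. The shares averaged 0.524% ± 0.0395 (SD, n = 3) and 0.330% ± 0.0657 (SD, n = 3).

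The number of calls depended on single libraries, for the members as for all genes. With Lsm14b-KO replicate 1 left out, 33 members were called lower, against 27.3% of all tested genes, and 2 higher, against 18%. With Lsm14b-KO replicate 2 left out, 17 were called lower (10.5% of all), and with replicate 3 left out, 10 (4.31% of all). With WT replicate 1, 2 or 3 left out, 10, 11 and 10 were called lower, against 5.16%, 5.22% and 5.94% of all tested genes. In all 6 of these fits, 10 members remained lower: Mrpl52, Mrpl53, Mrpl50, Mrpl46, Mrpl27, Mrpl41, Mrpl36, Mrpl54, Mrpl2 and Mrpl57. The calls of Mrpl22, Mrpl33 and Mrpl17 were lost when any WT library or Lsm14b-KO replicate 3 was left out, with adjusted p of at most 0.0720, 0.113 and 0.0720. Those of Mrpl1, Mrpl14 and Mrpl32 were lost when any WT library or Lsm14b-KO replicate 2 or 3 was left out, with adjusted p of at most 0.109, 0.141 and 0.134. The rise of Mrpl37 kept its call in just 1 of these fits, that without Lsm14b-KO replicate 1.

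The 5 most abundant members in WT were Mrpl34, Mrpl14, Mrpl32, Mrpl33 and Mrpl22, all counterparts of bacterial proteins. Mrpl34 was at 1238, 1152 and 972 FPKM in WT and at 876, 401 and 595 FPKM in Lsm14b-KO libraries. Its groups did not overlap, yet it was not past the threshold (log2 fold change −0.91, SE 0.35, limma adjusted p = 0.0980). Mrpl14 was at 1012, 993 and 855 FPKM in WT and at 562, 285 and 422 FPKM in Lsm14b-KO libraries (log2 fold change −1.22, SE 0.33, limma adjusted p = 0.0372). Mrpl32, whose precursor is cut by the mitochondrial m-AAA protease before assembly, was at 754, 711 and 649 FPKM in WT and at 430.4, 195 and 258 FPKM in Lsm14b-KO libraries (log2 fold change −1.33, SE 0.36, limma adjusted p = 0.0350). In WT the values of Mrpl34 and Mrpl14 overlapped between libraries, as did those of Mrpl32 and Mrpl33 and those of Mrpl33 and Mrpl22, but the order Mrpl34, Mrpl14, Mrpl32, Mrpl33, Mrpl22 was the same within each of the 3 libraries. Over all 48 members the WT mean ran from 0.124 to 1121 FPKM with a median of 27.5 FPKM.

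Grouped by the mean over all 6 libraries, falls were found at every level above 1 FPKM. Above 100 FPKM, 6 of 11 members were called lower, against 26.9% of all tested genes at that level, with a median log2 fold change of −1.33 against −0.85. Between 10 and 100 FPKM it was 9 of 16, against 24.8%, with medians of −1.74 and −0.41. Between 1 and 10 FPKM it was 7 of 16, against 13.7%, with medians of −0.60 and 0.051. Under 1 FPKM none of 3 members was called lower and Mrpl37 was called higher, and there 4.82% of all tested genes were called lower. Across the 46 tested members the log2 mean FPKM and the log2 fold change had a Pearson's r of −0.42 (Spearman's rho −0.44), a description across genes of the same libraries in which a fold on the log2(FPKM + 1) scale is compressed at low levels.

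By origin, 14 of the 29 tested members with a bacterial counterpart and 8 of the 17 tested members particular to mitochondria were called lower (48.3% and 47.1%, against 15.2% of all tested genes). On the TPM scale the counts were 8 and 8, against 7.6% of all tested genes. Without Lsm14b-KO replicate 1 the counts were 20 and 13, against 27.3% of all tested genes. The medians of the log2 fold changes were −1.22 and −1.48. The largest fall of the first list was that of Mrpl22 and of the second that of Mrpl52, and their least negative members were Mrpl4 and Mrpl44.

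By place in the subunit, each count on the FPKM scale with all libraries is to be read against the 15.2% of all tested genes. The central protuberance, which contacts the small subunit and the tRNAs, had 4 of 6 tested members called lower (Mrpl46, Mrpl27, Mrpl40 and Mrpl18). Its median log2 fold change was −1.73. Its least negative member was Mrpl55, at 61.4 ± 3.85 FPKM in WT against 36.7 ± 18.6 FPKM in Lsm14b-KO libraries (SD, n = 3 each), with overlapping groups (log2 fold change −0.84, limma adjusted p = 0.138). In the stalks, which bind the translation factors and guide the leaving tRNA, 3 of 4 were called lower (Mrpl1, Mrpl11 and Mrpl12). Mrpl1 was at 60.8, 59.9 and 35.6 FPKM in WT and at 24.9, 5.51 and 7.98 FPKM in Lsm14b-KO libraries (log2 fold change −2.17, SE 0.52, limma adjusted p = 0.0251). The fourth stalk gene, Mrpl10, was at 0.893, 1.71 and 2.41 FPKM against 0.401, 2.38 and 1.80 FPKM, with overlapping groups (log2 fold change −0.13, limma adjusted p = 0.797).

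Around the tunnel exit, where the new chain meets the inner membrane, 3 of 8 members were called lower (Mrpl22, Mrpl23 and Mrpl17), against 15.2% of all tested genes. The median of this list was −0.90, with Mrpl44 at the other end. The 4 genes of the peptidyl transferase core had a median of −0.0096. Mrpl2 was called lower, while Mrpl16, Mrpl3 and Mrpl4 were not past the threshold. Mrpl2 was at 5.78, 5.29 and 5.85 FPKM in WT and at 0.755, 1.04 and 1.38 FPKM in Lsm14b-KO libraries. Its WT libraries were close together and its groups did not overlap (log2 fold change −1.70, SE 0.20, limma adjusted p = 0.00219). Mrpl2 was past the threshold in all 17 alternatives. On the TPM scale the lower calls numbered 4, 2, 1 and 1 in the central protuberance, stalks, tunnel exit and core, against 7.6% of all tested genes. Without Lsm14b-KO replicate 1 the lower calls numbered 6, 3, 5 and 1 in the same order, against 27.3% of all tested genes. Mrpl11 and Mrpl17, among the calls named, and Mrpl39, of the tunnel exit, had been tested only through WT libraries. Mrpl3, of the core, and Mrpl44, of the tunnel exit, had been tested only through Lsm14b-KO libraries. These lists are small and the differences between them were not tested.

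**Figure D4:**
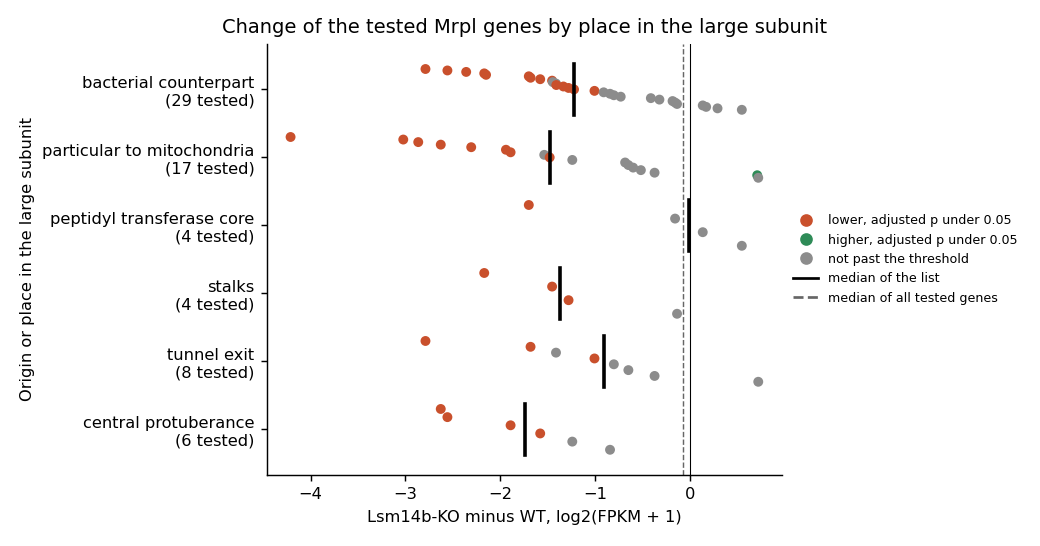
Log2 fold changes of the tested Mrpl genes by origin (top 2 rows) and by place in the subunit (lower 4 rows, in which a gene of the top rows can appear again). Points are genes coloured by call, black bars are list medians and the dashed line is the median of all tested genes. The medians of the central protuberance and the stalks lie at −1.73 and −1.37, and that of the peptidyl transferase core lies near 0.

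Transcript length was set against the fall, since FPKM is a value per length of transcript. Mrpl transcripts are short: the median length was 1253 nt for the tested members and 2258.5 nt for all tested genes with a length, taking for each gene its longest annotated transcript with a RefSeq match. Over the 46 tested members, log2 length and log2 fold change had a Pearson's r of 0.29 and a Spearman's rho of 0.32, so shorter transcripts tended to have larger falls. Over the 6318 tested genes with a length, the same values were 0.33 and 0.36. Shorter members also tended to be more abundant, with an r of −0.31 and a rho of −0.34 between log2 mean FPKM and log2 length. Level in turn had an r of −0.42 with the log2 fold change over the members. The parts of length and level were not separated. Genes are not independent replicates and share the 6 libraries, so these are descriptions with no p.

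The shortest member, Mrpl52 (418 nt), had the largest fall, and the other member under 600 nt was Mrpl33. From 600 to under 1000 nt, 8 of 13 members were called lower, with a median log2 fold change of −1.68, against 22% and −0.60 for all tested genes of that length. From 1000 to under 2000 nt, 6 of 17 were called lower, with a median of −0.52, against 19.6% and −0.32. At 2000 nt and more, 6 of 14 were called lower, with a median of −1.31, whereas all tested genes of that length had a median of 0.19 and 11.5% lower calls. The fall of the members did not decrease steadily with length.

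The length taken for a gene mattered. The longest member by this measure was Mrpl17, at 7300 nt, but the longest annotated transcript that lies within its deposited locus has 1028 nt, and in 15 members the 2 lengths differed by over 1.5 times. By the length within the deposited locus, which was added after the data were seen and could not be had for Mrpl46, r was 0.32 and rho 0.35 (n = 45). All 6 members with a positive log2 fold change then had 1068 nt or more, with a median of 1461 nt, against a median of 756 nt for the members with a negative one. Of those 6, Mrpl3, Mrpl37 and Mrpl44 had been tested only through Lsm14b-KO libraries. Among the members with a negative one, Mrpl11, Mrpl17 and Mrpl39 had been tested only through WT libraries. The filter on level thus had a part in the make-up of both groups. Of the 9 members under 600 nt, 4 were called lower (44.4%) with a median of −1.48, against 16.6% of all tested genes of that length. Of members from 600 to under 1000 nt, 13 of 19 were called lower (68.4%) with a median of −1.41, against 20.1% of all tested genes of that length. Of those from 1000 to under 2000 nt it was 2 of 11 (18.2%) with a median of −0.13, against 18.5%, a share near that of all tested genes. Of the 6 members at 2000 nt or more, 2 were called lower with a median of −0.91, against 11.2%. With the shortest annotated coding transcript in place of the longest, r was only 0.091. Mrpl17 itself was at 1.83, 1.82 and 2.13 FPKM in WT and at 0.736, 0.241 and 0.433 FPKM in Lsm14b-KO libraries (log2 fold change −1.01, SE 0.20, limma adjusted p = 0.0146).

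**Figure D5:**
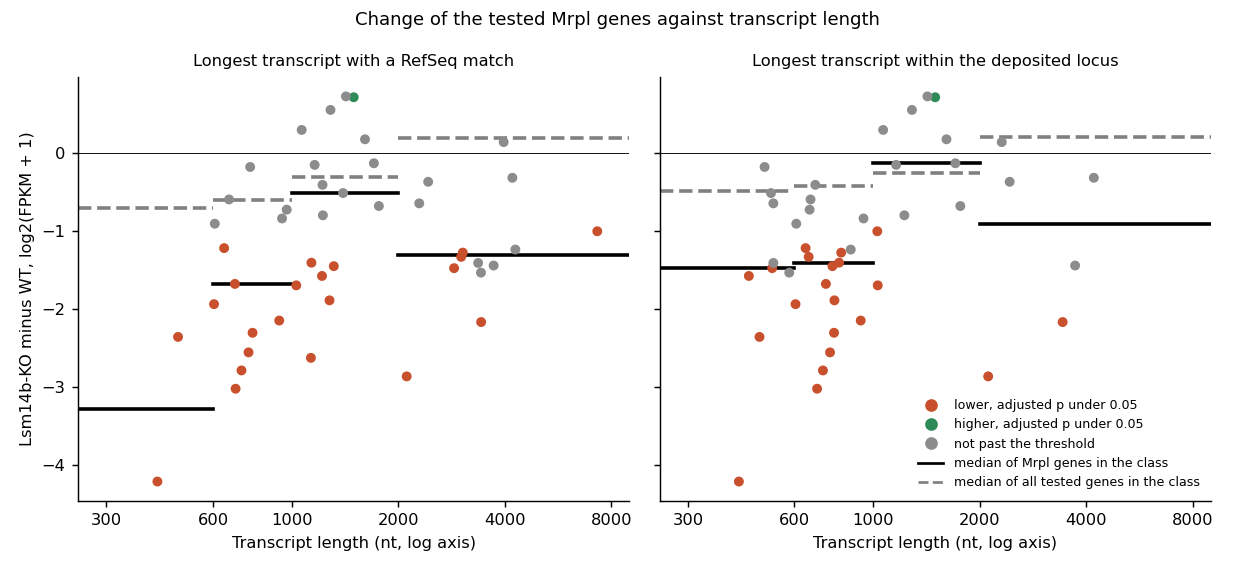
Log2 fold change of the tested Mrpl genes against transcript length on a log axis, with the longest transcript that has a RefSeq match on the left and the longest within the deposited locus on the right. Solid bars are medians of the Mrpl genes and dashed bars medians of all tested genes in the classes under 600, 600 to under 1000, 1000 to under 2000 and 2000 nt or more. Solid bars lie below dashed ones in every class but 1000 to under 2000 nt on the right, and there they are −0.13 and −0.26.

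When a smooth trend on length and GC content was removed from each library, the r with length was 0.021. The removal brings this r towards 0 by its design, so the value is no test. Of the 22 lower calls, 19 were kept, and those of Mrpl14, Mrpl21 and Mrpl23 were lost. Over all members 19 were then called lower and 2 higher, with a median log2 fold change of −1.08, against 12.4% lower, 10.3% higher and a median of 0.10 over all tested genes. The second higher call was Mrpl4 (0.84, limma adjusted p = 0.0454). With the trend taken on the length within the deposited locus, 18 were called lower, against 12.6% of all, with a median of −0.78. The r with that length was then 0.15.

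Rescaling each library to the same FPKM sum, that is to TPM, shifted all genes upwards. The median of all tested genes moved from −0.075 to 0.40 and the split of calls from 975 lower and 408 higher to 486 lower and 833 higher. On this scale 16 Mrpl genes were called lower, against 7.6% of all, and 2 higher, against 13%, and their median was −0.68. Taken from the all-gene median, the median of the members was −1.18 on the FPKM scale and −1.08 on the TPM scale. Mrpl52 (−3.98), Mrpl53 (−2.36), Mrpl50 (−2.28) and Mrpl22 (−2.10) stayed the largest falls, and 32 of the 46 members kept a negative log2 fold change. The calls of Mrpl12, Mrpl14, Mrpl17, Mrpl21, Mrpl23 and Mrpl32 were lost. Mrpl28 was called higher on this scale, at 0.96 (limma adjusted p = 0.0346), beside Mrpl37.

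Other genes of the pathway were described from lists made by function. Of large-subunit proteins that carry other symbols, 3 of 4 tested were called lower, against 15.2% of all tested genes. On the TPM scale 2 were called lower, against 7.6%, and without Lsm14b-KO replicate 1 there were 3, against 27.3%. Mrps18a, a large-subunit protein despite its name, was at 173.7, 178.1 and 156.7 FPKM in WT and at 9.72, 3.92 and 7.65 FPKM in Lsm14b-KO libraries (log2 fold change −4.47, SE 0.34, limma adjusted p = 0.000656). On the TPM scale its log2 fold change was −3.84, beside −3.98 for Mrpl52. Mrps30 was at 0.382, 1.66 and 0.921 FPKM against 0.714, 0.784 and 0.785 FPKM, with overlapping groups. The others called lower were Gadd45gip1 and Ict1. In the small subunit 12 of 28 tested genes were called lower and none higher, with a median of −0.99, against 15.2% lower and 6.38% higher over all tested genes. Without Lsm14b-KO replicate 1, 19 were called lower and 1 higher, against 27.3% and 18% of all tested genes. Its extremes were Mrps31 (−3.20, limma adjusted p = 0.0136) and Mrps6 (0.72, limma adjusted p = 0.0811). On the TPM scale its median was −0.35 with 8 lower calls and 1 higher, that of Mrps6 (1.40, limma adjusted p = 0.0206). On that scale 7.6% of all tested genes were called lower and 13% higher.

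The cytosolic large-subunit proteins, which belong to the ribosome of the cytoplasm, had 9 of 44 tested genes called lower (20.5%, against 15.2% of all tested genes), none higher, and a median of −0.38. Without Lsm14b-KO replicate 1, 17 were called lower and 4 higher, against 27.3% and 18% of all tested genes. On the TPM scale the median of the cytosolic proteins was 0.11, with 3 lower calls and 1 higher. On that scale 7.6% of all tested genes were called lower and 13% higher. Large-subunit assembly factors had 1 lower and 1 higher call among 10 tested genes, with a median of 0.11. Over all tested genes 15.2% were called lower and 6.38% higher. Without Lsm14b-KO replicate 1 the factors had 1 lower and 2 higher calls, against 27.3% and 18% of all tested genes. Gtpbp10, a GTPase that acts late in assembly, was at 1.60, 1.90 and 1.10 FPKM in WT and at 0.568, 0.291 and 0.217 FPKM in Lsm14b-KO libraries (log2 fold change −0.90, limma adjusted p = 0.0257), and its call was lost on the TPM scale (adjusted p = 0.0783). Mterf3, a mitochondrial factor that takes part in ribosomal RNA and subunit assembly, was at 0.830, 1.63 and 1.20 FPKM against 7.59, 4.04 and 5.01 FPKM, and it rose on both scales (log2 fold change 1.54, limma adjusted p = 0.00762). Of 5 tested mitochondrial translation factors, the release factor Mtrf1 was called lower, at 16.9, 11.8 and 12.5 FPKM against 5.43, 1.05 and 1.59 FPKM (log2 fold change −2.17, limma adjusted p = 0.0128). Without Lsm14b-KO replicate 1, 2 of the 5 were called lower, against 27.3% of all tested genes. Tsfm, an elongation factor, was at the other end, at 1.33 ± 0.609 FPKM in WT against 1.95 ± 0.441 FPKM in Lsm14b-KO libraries (SD, n = 3 each).

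Some values are uncertain for reasons of sequence. Near-identical annotated copies, each a pseudogene, exist for Mrpl21, Mrpl22, Mrpl23, Mrpl27, Mrpl32, Mrpl41, Mrpl42, Mrpl48 and Mrpl51, and how the authors' software divided reads among such copies was not tested. Whether the libraries keep strand was not given in the sources used here, so reads from overlapping genes may not be told apart, and 8 members overlap another annotated gene on the same strand and 23 one on the other strand. Among the largest falls these include Mrpl53 (chromosome 6, 83109040 to 83109939), Mrpl46 (chromosome 7, 78775236 to 78783531) and Mrpl33 (chromosome 5, 31596935 to 31664384), whereas no overlapping gene is annotated for Mrpl52 (chromosome 14, 54426909 to 54429756), Mrpl50 (chromosome 4, 49512596 to 49521093) and Mrpl22 (chromosome 11, 58171661 to 58179565), all in GRCm38, the assembly also named mm10.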

How the data were processed

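RNA-Seq of 3 WT and 3 Lsm14b-KO oocyte libraries was analysed from the FPKM table that the authors deposited, with groups and replicate numbers taken from the sample titles. Per the labels and methods, the authors aligned the reads to mm10 with TopHat2 (2.0.13) and computed the deposited FPKM values with Cufflinks (2.2.1). The labels name 2 library kits, and the annotation used was not given in the sources used here. The table's further columns hold the authors' fold change, p-value and q-value and were not used. Read counts were not used here, so relative depth was estimated from the commonest ratio of very low FPKM values.

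Genes that reached 1 FPKM in any library were fitted on log2(FPKM + 1) with limma 3.58.1 in R 4.3.3 (intensity trend, genotype only, two-sided, Benjamini-Hochberg over 6398 genes). Tested on simulated data of 6398 genes, the fit recovered 89.5% of 200 genes changed by 2 on the log2 scale, and 6.77% of its calls were unchanged genes. The changed genes were drawn from those with a WT mean over 2 on the log2(FPKM + 1) scale. The simulated noise was independent between genes and of the same spread in both genotypes, with no shift of a whole library. The 6.77% is therefore no estimate of the error in these data. FPKM is relative to each library's fragments, so abundant transcripts can move all others.

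Lengths, GC content and loci came from GENCODE vM21 (GRCm38), and were found for 6318 tested genes (98.7%). The correction for them subtracted a loess fit (span 0.5) per library. Copies were sought with blastn 2.17.0 with a minimum of 95% identity and of 200 nt. The members and gene lists were chosen with earlier results of these data known. Genes given with values were Lsm14b, the 8 largest falls past the threshold, every member at 0 or above, the 5 highest in WT, the longest and shortest, and the extremes of each list.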

Additional observations from a re-analysis of the deposited data

How the results depend on the processing

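The median log2 fold change of the Mrpl genes stayed negative in all 17 alternatives. It moved most on the TPM scale, to −0.68. The number called lower was 16 on the TPM scale and also 16 without the filter on low values, 18 after quantile normalization and 19 at a pseudocount of 0.01. The single higher call was lost (0 members) at a pseudocount of 0.01, without the filter, with a mean of at least 1 FPKM required, after quantile normalization and without the intensity trend, and there were 2 on the TPM scale and after the length and GC correction. Leaving out 1 library at a time gave 10 to 33 lower calls, 0 to 2 higher calls and medians of −1.50 to −0.91. The r between length and log2 fold change was 0.091 with the shortest coding transcript and 0.28 to 0.31 with 1 library left out. It was 0.021 after the correction for length and GC content, which brings it towards 0 by design.

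The deviations of same-numbered libraries had an r of 0.19, −0.13 and 0.018, and those of the other pairs ran from −0.28 to 0.31. With 3 libraries per genotype, these values cannot show whether same-numbered libraries were prepared together. With the replicate block 21 members were called lower and 0 higher, and with the block and the correction together 22 and 1. Under other settings the sign of 3 named members turned, none of them past the threshold. Mrpl10 was at 0.34 on the TPM scale, 0.054 after the length and GC correction with or without the block, 0.012 after that correction on the deposited locus (added after the data were seen), and from −0.39 to 0.24 with 1 library left out (0.062 without WT replicate 3). Without Lsm14b-KO replicate 2, Mrpl3 was at −0.081 and Mrpl9 at −0.096, and Mrpl9 reached 0.39 without Lsm14b-KO replicate 1. Of 371 values of named members under the alternatives, 307 kept their sign and side of the threshold, 51 lost the call and 5 gained it. The cause of these changes was not tested. With 3 libraries per genotype and no read counts, small changes of genes near 1 FPKM could not be resolved.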
